A study of Mus musculus with 9 samples.

Results

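The genes of glycolysis and of the pentose phosphate pathway were examined in the mouse megakaryocytic line L8057, which comes from a leukaemia, after knockdown of CBFb or of Ring1b by short hairpin RNA. The set was a list of 32 genes, from glucose uptake to lactate export, together with the kinases that gate pyruvate oxidation and the pentose phosphate enzymes. Of these, 27 could be tested, among 18193 genes tested in all. Each gene was read from the probe set that carried its symbol alone and had the highest mean over the 9 arrays. The groups were CBFb_KD (hairpin against CBFb, 3 arrays), Ring1b_KD (hairpin against Ring1b, 3 arrays) and Control (empty vector, 3 arrays). All cells, the Control cells included, carried a lentiviral vector, received puromycin together with TPA, a phorbol ester, at 50 nM from 48 h after infection, and were harvested 72 h later. TPA drives this line toward megakaryocyte features, so the comparison is between induced cells, and no group without TPA was analysed here. Whether each culture had its own infection is not in the labels. A p-value of the main fit weighs a difference against the spread between arrays within groups, which may be partly technical. That spread is pooled over the 3 groups, so it includes the group that is not in the comparison, and is moderated by that of other genes.

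Glycolysis breaks glucose down to pyruvate, and several of its steps can be carried out by enzymes from different genes, called isoforms here. Phosphofructokinase is the committed step, hexokinase and pyruvate kinase are the other main control points, and monocarboxylate transporters carry lactate across the cell membrane. The pentose phosphate pathway branches off after hexokinase and supplies NADPH and ribose. Megakaryocytes and platelets are known to use glycolysis heavily.

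Values are log2 signals after quantile normalization, and a difference of log2 signals is a log2 fold change. A gene was called when its limma p, adjusted by Benjamini-Hochberg over all 18193 genes, was under 0.05. The targeted transcripts followed the labels: Cbfb was lower in CBFb_KD by -3.17 (limma adjusted p = 3.28e-10), and Rnf2, which encodes Ring1b, was lower in Ring1b_KD by -1.67 (limma adjusted p = 3.31e-07). Arrays of one group correlated at 0.995 to 0.997 over all genes and arrays of different groups at 0.987 to 0.994. Of the measured megakaryocyte markers, 8 of 11 lay above the median gene (7.42), among them Itga2b and Gp9, and 0 of 4 fibroblast and endothelial markers did. So did 3 of 5 erythroid markers, 2 of 4 mast cell markers, 4 of 11 neutrophil and monocyte markers and 2 of 5 lymphoid markers. Of the tested pathway members, 21 lay above the median gene and 6 at or below it.

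The pathway did not move as a block in either knockdown. In CBFb_KD, 5 members were called higher than in Control (Hk1, Pfkfb2, Aldoa, Aldoc and Pkm) and 3 lower (Pfkl, Pfkp and Slc16a1). In Ring1b_KD, 1 was called higher (Aldoa) and 4 lower (Pfkl, Pfkp, Slc16a1 and Tkt). The share called was 29.6% of members in CBFb_KD, where 15.4% of all genes were called (7.78% higher and 7.6% lower), and 18.5% in Ring1b_KD, where 12.2% of all genes were called (5.66% higher and 6.57% lower). The median log2 fold change of the members was -0.03 in CBFb_KD, within a range of -0.68 to 0.98. In Ring1b_KD it was 0.05, within a range of -1.36 to 0.42, and it turned to -0.07 when arrays were centred on their medians. The median over all genes was -0.01 in CBFb_KD and 0.01 in Ring1b_KD. Both comparisons share the 3 Control arrays. In bulk RNA, fewer cells that express a gene and less of its RNA per cell cannot be told apart.

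**Figure D1:**
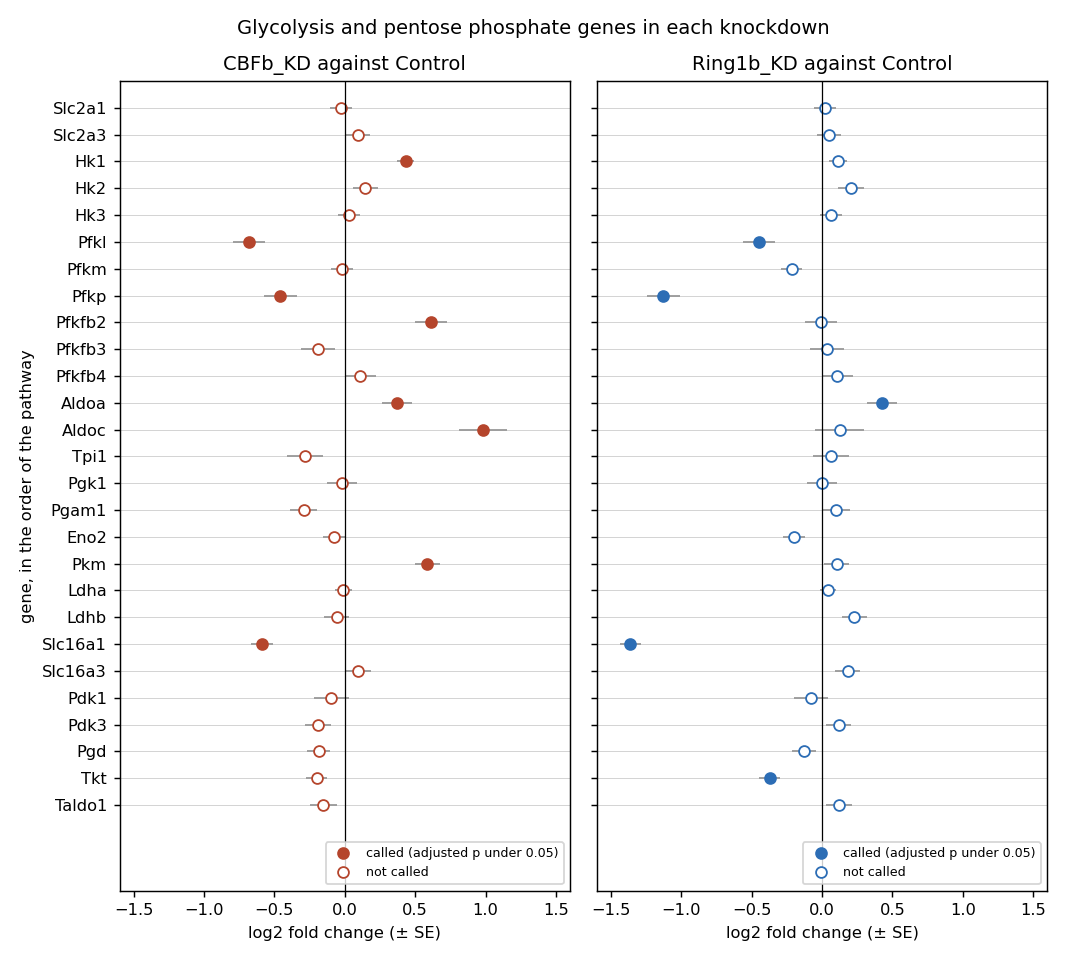
Log2 fold change of each of the 27 members (x axis, log2, bars are the limma SE) in CBFb_KD against Control on the left and Ring1b_KD against Control on the right, with genes in pathway order down the page. Filled points were called, and Slc16a1 in Ring1b_KD at -1.36 and Aldoc in CBFb_KD at 0.98 lie at the ends of the scale.

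Marker genes of cell types moved with the groups as well. Of all genes, 7.78% were called higher and 7.6% lower in CBFb_KD, and 5.66% higher and 6.57% lower in Ring1b_KD. Of the megakaryocyte markers, 6 of 11 were called higher in CBFb_KD and 2 of 11 lower in Ring1b_KD, and the per-array mean of the list was 10.04 to 10.16 in CBFb_KD, 8.90 to 9.38 in Ring1b_KD and 9.16 to 9.44 in Control. Of the erythroid markers, 3 of 5 were called higher in CBFb_KD and 0 in Ring1b_KD, with per-array means of 8.69 to 8.92 in CBFb_KD, 8.22 to 8.37 in Ring1b_KD and 8.10 to 8.21 in Control. Of 11 neutrophil and monocyte markers, Prtn3 was called higher (1.42) and Ctsg lower (-0.69) in CBFb_KD, and Ctsg lower in Ring1b_KD (-0.80). Of 5 lymphoid markers, 1 was called higher in Ring1b_KD, and 0 of 4 mast cell markers were called in either knockdown. Of 9 measured genes of cycling cells, 8 were called lower in CBFb_KD (median -0.50) and 1 in Ring1b_KD (median -0.20). The Ring1b_KD count was 5 in the values as deposited and with centred arrays, 3 with dim genes left out or without CBFb_KD array 2, and 0 without Control array 3, and 5 of the 9 had an unadjusted limma p under 0.05. The part of these shifts in the results below was not tested.

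Slc16a1 encodes MCT1, a proton-linked carrier of lactate and pyruvate, and lies at chr3:104638664-104658462 (GRCm38.p6, as all coordinates here). It had log2 signals of 11.67, 11.66 and 11.68 in the CBFb_KD arrays, 10.93, 10.75 and 11.01 in the Ring1b_KD arrays, and 12.24, 12.22 and 12.31 in the Control arrays. The 3 groups did not overlap, with Ring1b_KD lowest, CBFb_KD between and Control highest. The gene was 2.57-fold lower in Ring1b_KD (a log2 difference of -1.36, SE 0.08, limma adjusted p = 5.78e-07) and 1.503-fold lower in CBFb_KD (-0.59, limma adjusted p = 0.000234). The knockdowns also differed from each other, with CBFb_KD 0.77 above Ring1b_KD (limma adjusted p = 2.34e-05). These 3 calls were kept under all 17 alternative settings. Slc16a3, which encodes the other lactate carrier of the list, MCT4, averaged 5.86 ± 0.06 in CBFb_KD, 5.95 ± 0.17 in Ring1b_KD and 5.77 ± 0.08 in Control (SD, n = 3 each), and was not called in either knockdown (limma adjusted p = 0.62 in CBFb_KD and 0.22 in Ring1b_KD).

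The 250 bases before the transcription start of the 4 members called lower in Ring1b_KD are shown, a choice that rests on those calls alone. They are RefSeq promoters on GRCm38.p6, read 5′ to 3′ on the strand of the gene. Capitals mark letters searched for on both strands: ACGTG and GCGTG, the core of the hypoxia response element, CACGTG, an E-box that contains ACGTG on both strands, and TGTGGT, the core letters of the core binding factor site.
Slc16a1, chr3:104638414-104638663, plus strand: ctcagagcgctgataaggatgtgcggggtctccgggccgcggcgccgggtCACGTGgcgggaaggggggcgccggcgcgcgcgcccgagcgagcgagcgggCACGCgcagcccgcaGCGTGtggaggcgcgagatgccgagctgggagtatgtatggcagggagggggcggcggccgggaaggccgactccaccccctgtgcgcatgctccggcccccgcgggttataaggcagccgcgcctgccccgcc
Pfkl, chr10:78009808-78010057, minus strand: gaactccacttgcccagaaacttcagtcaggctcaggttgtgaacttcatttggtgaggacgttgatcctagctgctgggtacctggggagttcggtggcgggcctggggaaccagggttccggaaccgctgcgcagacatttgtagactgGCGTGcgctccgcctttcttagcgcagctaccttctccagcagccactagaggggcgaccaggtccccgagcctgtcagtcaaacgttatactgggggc
Pfkp, chr13:6648772-6649021, minus strand: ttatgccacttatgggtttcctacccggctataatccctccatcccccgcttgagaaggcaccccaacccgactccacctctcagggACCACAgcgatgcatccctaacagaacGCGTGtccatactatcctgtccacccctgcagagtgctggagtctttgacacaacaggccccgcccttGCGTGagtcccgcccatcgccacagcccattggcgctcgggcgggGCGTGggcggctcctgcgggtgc
Tkt, chr14:30548881-30549130, plus strand: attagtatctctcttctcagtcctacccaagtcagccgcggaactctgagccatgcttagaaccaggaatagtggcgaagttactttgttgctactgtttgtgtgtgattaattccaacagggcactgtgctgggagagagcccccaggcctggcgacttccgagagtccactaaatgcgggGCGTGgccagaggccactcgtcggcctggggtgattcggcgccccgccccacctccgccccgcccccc
In the Slc16a1 window, CACGTG began 200 bases before the start, and GCGTG began 134 bases before it and, on the opposite strand, 149 bases before it. GCGTG began 99 bases before the start of Pfkl, 68 before that of Tkt, and 136, 68 and 23 before that of Pfkp, which also held TGTGGT on the opposite strand 163 bases before its start. A match is a description of letters and not a binding site.

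Phosphofructokinase, the committed step, was lower in its liver-type and platelet-type genes in both knockdowns. Pfkl, the liver-type gene at chr10:77986947-78009807, had log2 signals of 10.40, 10.21 and 9.91 in CBFb_KD, 10.30, 10.39 and 10.54 in Ring1b_KD, and 10.94, 10.84 and 10.79 in Control. Both knockdowns lay below every Control array, and they overlapped each other. Pfkl was 1.605-fold lower in CBFb_KD (-0.68, SE 0.11, limma adjusted p = 0.00123) and 1.37-fold lower in Ring1b_KD (-0.45, limma adjusted p = 0.0215), and the knockdowns did not differ at the threshold (-0.23, limma adjusted p = 0.181). The Ring1b_KD call was lost in 6 of 17 alternatives, namely without Ring1b_KD array 1 or 2, without any 1 of the Control arrays (limma adjusted p = 0.0502 to 0.0786), and with the mean of the gene's probe sets (-0.09).

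Pfkp, the platelet-type gene at chr13:6579874-6649060, had log2 signals of 8.89, 8.88 and 8.86 in CBFb_KD, 8.12, 8.54 and 7.96 in Ring1b_KD, and 9.32, 9.34 and 9.34 in Control. The 3 groups did not overlap, and the Ring1b_KD arrays were lowest and spread most. It was 2.18-fold lower in Ring1b_KD (-1.13, SE 0.12, limma adjusted p = 0.000113) and 1.37-fold lower in CBFb_KD (-0.46, limma adjusted p = 0.0185), with CBFb_KD 0.67 above Ring1b_KD (limma adjusted p = 0.00171). The CBFb_KD call was lost without CBFb_KD array 2 or 3 or any 1 of the Control arrays (limma adjusted p = 0.0528 to 0.0624), while the fold change stayed between -0.45 and -0.47 in those fits.

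Pfkm, the muscle-type gene at chr15:98092589-98132447, was not called in either knockdown. It averaged 10.25 ± 0.05 in CBFb_KD, 10.05 ± 0.07 in Ring1b_KD and 10.27 ± 0.08 in Control (log2 signal, SD, n = 3 each). The Ring1b_KD arrays lay below all the others, by -0.22 against Control (limma adjusted p = 0.0876). That difference passed the threshold in the values as deposited (-0.32, limma adjusted p = 0.0131) and with median-centred arrays (-0.41, limma adjusted p = 0.00441).

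**Figure D2:**
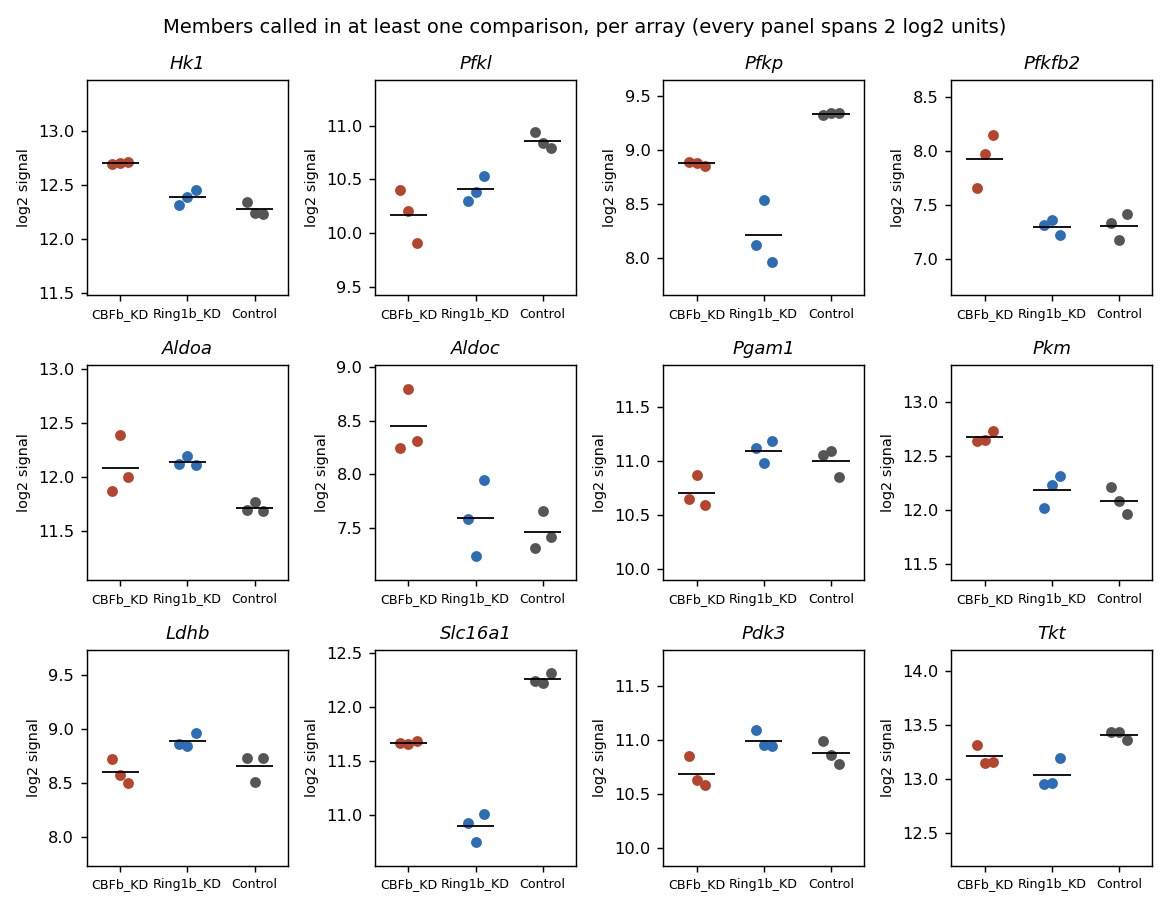
Log2 signal (y axis) of the 12 members called in at least 1 of the 3 comparisons, with 1 point per array and a bar at the mean for CBFb_KD, Ring1b_KD and Control. Slc16a1 and Pfkp form 3 separate levels, while Hk1, Pfkfb2, Aldoc and Pkm stand higher in CBFb_KD than in both other groups.

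The kinases and phosphatases that make and remove fructose 2,6-bisphosphate, an activator of phosphofructokinase, were read through Pfkfb2, Pfkfb3 and Pfkfb4. Pfkfb2 at chr1:130689043-130729253 had log2 signals of 7.66, 7.97 and 8.15 in CBFb_KD, 7.32, 7.36 and 7.23 in Ring1b_KD, and 7.33, 7.18 and 7.42 in Control. All CBFb_KD arrays lay above all others, and Ring1b_KD and Control overlapped. Pfkfb2 was 1.53-fold higher in CBFb_KD than in Control (0.61, SE 0.12, limma adjusted p = 0.00263) and 1.54-fold higher than in Ring1b_KD (limma adjusted p = 0.00217), and in Ring1b_KD its difference from Control was -0.01. Both calls were lost with the mean of the gene's probe sets (0.32, limma adjusted p = 0.069, and 0.27, limma adjusted p = 0.112). Pfkfb3 and Pfkfb4 were not called, with -0.19 and 0.11 in CBFb_KD and 0.04 and 0.11 in Ring1b_KD.

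Hexokinase traps glucose as glucose 6-phosphate. Hk1, its widely expressed gene at chr10:62268855-62379920, had log2 signals of 12.70, 12.71 and 12.72 in CBFb_KD, 12.32, 12.39 and 12.46 in Ring1b_KD, and 12.34, 12.25 and 12.24 in Control. The CBFb_KD arrays lay within a narrow band above all others, and the other groups overlapped. Hk1 was 1.35-fold higher in CBFb_KD (0.43, SE 0.06, limma adjusted p = 0.00053) and 1.25-fold higher than in Ring1b_KD (limma adjusted p = 0.00316), and was not called in Ring1b_KD (0.11, limma adjusted p = 0.281). Hk2 and Hk3, the other hexokinases, were not called, at 0.15 and 0.03 in CBFb_KD and 0.21 and 0.06 in Ring1b_KD. The glucose transporter genes Slc2a1 (GLUT1) and Slc2a3 (GLUT3) differed by -0.03 and 0.09 in CBFb_KD and by 0.02 and 0.05 in Ring1b_KD, and neither was called. Slc2a1 averaged 4.99 ± 0.02 in CBFb_KD, 5.04 ± 0.14 in Ring1b_KD and 5.02 ± 0.05 in Control (SD, n = 3 each), below the median gene.

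Aldolase splits fructose 1,6-bisphosphate. Aldoa, the muscle-type and most general gene at chr7:126795234-126800994, was the only member called higher in both knockdowns. It had log2 signals of 11.87, 12.39 and 12.00 in CBFb_KD, 12.12, 12.19 and 12.11 in Ring1b_KD, and 11.70, 11.76 and 11.69 in Control. Every knockdown array lay above every Control array, and CBFb_KD array 2 stood highest. Aldoa was 1.29-fold higher in CBFb_KD (0.37, SE 0.11, limma adjusted p = 0.0341) and 1.34-fold higher in Ring1b_KD (0.42, limma adjusted p = 0.0222). The CBFb_KD call was lost in 10 of 17 alternatives, with 0.22 (limma adjusted p = 0.0988) without CBFb_KD array 2. It was also lost without CBFb_KD array 3 or any 1 of the Control arrays (limma adjusted p = 0.0502 to 0.11). The scaling mattered too, as it was lost in the values as deposited (0.36, limma adjusted p = 0.0563) and with centred arrays (0.35, limma adjusted p = 0.097). The other losses were with only the arrays of those groups, with the mean of probe sets and over all probe sets (limma adjusted p = 0.0515 to 0.0596). The Ring1b_KD call was lost in 7 of 17, namely in the values as deposited (0.34, limma adjusted p = 0.0652), with centred arrays (0.26, limma adjusted p = 0.209), and without Ring1b_KD array 1 or 2 or any 1 of the Control arrays (0.40 to 0.45, limma adjusted p = 0.0536 to 0.0767).

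Aldoc, the brain-type aldolase at chr11:78323073-78327781, had log2 signals of 8.25, 8.79 and 8.31 in CBFb_KD, 7.58, 7.24 and 7.95 in Ring1b_KD, and 7.32, 7.66 and 7.42 in Control. The CBFb_KD arrays lay above all others, again with array 2 highest, and the other groups overlapped. Aldoc had the largest rise among the tested members in either knockdown, 1.98-fold in CBFb_KD (0.98, SE 0.17, limma adjusted p = 0.0018), and stood 1.81-fold above Ring1b_KD (0.86, limma adjusted p = 0.00393). In Ring1b_KD it was not called (0.13, limma adjusted p = 0.697). Both CBFb_KD calls were kept under all 17 alternatives.

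In lower glycolysis, the pyruvate kinase gene Pkm at chr9:59656576-59679372 was higher in CBFb_KD. It had log2 signals of 12.64, 12.65 and 12.73 in CBFb_KD, 12.02, 12.24 and 12.32 in Ring1b_KD, and 12.21, 12.09 and 11.96 in Control. The CBFb_KD arrays did not overlap with the others. Pkm was 1.502-fold higher than in Control (0.59, SE 0.09, limma adjusted p = 0.0006) and 1.40-fold higher than in Ring1b_KD (limma adjusted p = 0.00189), and was not called in Ring1b_KD (0.10, limma adjusted p = 0.489). Splicing of this gene gives the PKM1 and PKM2 forms, which were not separated here, since the gene had a single probe set.

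The other enzymes of lower glycolysis were not called in either knockdown. Tpi1 (triose phosphate isomerase) had log2 signals of 11.16, 11.54 and 10.90 in CBFb_KD, 11.53, 11.45 and 11.67 in Ring1b_KD, and 11.52, 11.50 and 11.45 in Control. CBFb_KD array 2 lay with the other groups and the other two CBFb_KD arrays below them, so that the difference of -0.28 (limma adjusted p = 0.176) became -0.45 (limma adjusted p = 0.00893) without array 2. Pgk1 (phosphoglycerate kinase) showed the same array apart, at 13.15 beside 12.69 and 12.66 in CBFb_KD, with 12.78 to 12.91 in Ring1b_KD and 12.79 to 12.92 in Control, and differed by -0.02 in CBFb_KD and 0.00 in Ring1b_KD. Eno2, the neuronal enolase, differed by -0.08 and -0.20 and lay below the median gene.

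Pgam1 (phosphoglycerate mutase) had log2 signals of 10.65, 10.87 and 10.60 in CBFb_KD, 11.12, 10.98 and 11.19 in Ring1b_KD, and 11.05, 11.09 and 10.85 in Control. Its difference from Control was -0.29 in CBFb_KD (limma adjusted p = 0.0576) and 0.10 in Ring1b_KD (limma adjusted p = 0.547). The CBFb_KD difference crossed the threshold with the replicate block, which pairs arrays of the same number (-0.29, limma adjusted p = 0.04997), with dim genes left out (limma adjusted p = 0.0388), without CBFb_KD array 2 (-0.38, limma adjusted p = 0.0264) and without Control array 3 (-0.37, limma adjusted p = 0.0419).

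Gapdh (glyceraldehyde phosphate dehydrogenase) had no probe set with its symbol alone apart from 3 control probe sets of the array, which were tested in a fit over all probe sets, a choice made after seeing the data. They differed by -0.16, -0.18 and -0.17 in CBFb_KD (limma adjusted p = 0.234 to 0.287) and by -0.05, -0.00 and -0.03 in Ring1b_KD (limma adjusted p = 0.762 to 0.984). Gpi1, Pfkfb1, Eno1 and G6pdx had no single-symbol probe set in the annotation used here, and were not analysed here.

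At the lactate step, neither dehydrogenase gene was called against Control. Ldha averaged 13.69 ± 0.06 in CBFb_KD, 13.74 ± 0.06 in Ring1b_KD and 13.70 ± 0.07 in Control (SD, n = 3 each), and its differences of -0.01 and 0.04 were smaller than these spreads. Ldhb had log2 signals of 8.73, 8.57 and 8.51 in CBFb_KD, 8.86, 8.85 and 8.97 in Ring1b_KD, and 8.74, 8.51 and 8.74 in Control. The Ring1b_KD arrays lay above all others, by 0.23 against Control (limma adjusted p = 0.124).

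Pyruvate dehydrogenase kinases restrain the oxidation of pyruvate by pyruvate dehydrogenase. Pdk1 had log2 signals of 9.07, 9.24 and 8.73 in CBFb_KD, 8.92, 9.04 and 9.13 in Ring1b_KD, and 9.14, 9.23 and 8.96 in Control, and the groups overlapped. Its differences were -0.10 in CBFb_KD and -0.08 in Ring1b_KD, and neither was called. Pdk3 had log2 signals of 10.85, 10.63 and 10.58 in CBFb_KD, 11.09, 10.95 and 10.94 in Ring1b_KD, and 10.99, 10.86 and 10.77 in Control, and differed from Control by -0.19 in CBFb_KD (limma adjusted p = 0.218) and 0.12 in Ring1b_KD (limma adjusted p = 0.446).

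In the pentose phosphate pathway, Tkt was lower in Ring1b_KD. Tkt encodes transketolase, which moves carbon units between sugar phosphates, and lies at chr14:30549131-30574724. It had log2 signals of 13.32, 13.15 and 13.16 in CBFb_KD, 12.96, 12.97 and 13.19 in Ring1b_KD, and 13.43, 13.43 and 13.36 in Control. Every array of either knockdown lay below every Control array. The gene was 1.29-fold lower in Ring1b_KD (-0.37, SE 0.07, limma adjusted p = 0.00647), a call lost with the mean of its probe sets (-0.25, limma adjusted p = 0.0511). In CBFb_KD it differed by -0.20 (limma adjusted p = 0.0951), which crossed the threshold when the fit held the arrays of those groups alone (limma adjusted p = 0.0478), without CBFb_KD array 1 (-0.26, limma adjusted p = 0.0428) and without Ring1b_KD array 3 (limma adjusted p = 0.0419). Pgd, the second NADPH-producing enzyme of the pathway, differed by -0.18 in CBFb_KD (limma adjusted p = 0.184) and -0.13 in Ring1b_KD (limma adjusted p = 0.352), which passed the threshold only with centred arrays (-0.33, limma adjusted p = 0.0195). Taldo1 (transaldolase) differed by -0.15 and 0.12 and was not called.

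Set against each other, the knockdowns differed in 9 of the 27 members (33.3%), where 19.4% of all genes were called (10.1% higher and 9.31% lower in CBFb_KD). Hk1, Pfkp, Pfkfb2, Aldoc, Pkm and Slc16a1 were higher in CBFb_KD than in Ring1b_KD, and Pgam1, Ldhb and Pdk3 lower. The number of higher members was between 5 and 8 in the alternatives. Pgam1 was 1.31-fold lower in CBFb_KD than in Ring1b_KD (-0.39, limma adjusted p = 0.0119), Pdk3 1.24-fold lower (-0.31, limma adjusted p = 0.031) and Ldhb 1.22-fold lower (-0.29, limma adjusted p = 0.042), each with arrays that did not overlap. These 3 calls were lost in the values as deposited and with centred arrays, and without CBFb_KD array 3, where 0 members were lower. Ldhb lost its call in 12 of 17 alternatives, Pdk3 in 6 and Pgam1 in 3. With the mean of its probe sets Ldhb gave -0.09 (limma adjusted p = 0.412). The other Ldhb probe sets, all dimmer, gave -0.09, -0.08 and 0.11, and none of them was called. Without Ring1b_KD array 1, 1 member was lower, and without CBFb_KD array 1, 5 were. The median of the members was -0.03, and it was 0.01 in the values as deposited and 0.09 with centred arrays.

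The scaling of the arrays moved the balance of directions, and the Ring1b_KD arrays had the highest medians as deposited (6.61, 6.64 and 6.65), against 6.54 to 6.59 in CBFb_KD and 6.51 to 6.58 in Control. Of all genes called in Ring1b_KD, 46.2% were higher after quantile normalization, 34% in the values as deposited and 12.2% with centred arrays. Between the knockdowns, 52.1% of called genes were higher in CBFb_KD after quantile normalization, 62.2% in the values as deposited and 84.2% with centred arrays. Slc16a1 and Pfkp in Ring1b_KD, and Hk1, Aldoc and Pkm in CBFb_KD, kept their calls under each of these scalings.

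To compare isoforms of a step, the difference between the log2 signals of 2 genes was taken within each array and its mean was compared between groups. Since signals of different probe sets are not on one scale, only the shift of such a difference between groups is given. The 14 pairs and 3 comparisons gave 42 tests by an exact two-sided permutation test, in which 3 arrays against 3 cannot go below p = 0.1, and the smallest adjusted p was 0.191. Both genes lay above the median gene in 7 of the 14 pairs, and the description below keeps to these, a choice made after seeing the data, as it was not tested whether the dimmer genes lay above background. Of all 14 pairs, 8 did not overlap in CBFb_KD against Control, 5 in Ring1b_KD against Control and 9 between the knockdowns. Among the 7 pairs, those counts were 4, 4 and 6. Pairs of the same step share genes and are not independent of one another. Of all single genes, 31.6%, 32.9% and 33.8% did not overlap in those comparisons, a share that was not taken for differences of 2 genes.

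Within phosphofructokinase, Pfkl minus Pfkm shifted by -0.66 in CBFb_KD and by -0.23 in Ring1b_KD, and Pfkm minus Pfkp by 0.44 and 0.91, each without overlap with Control (exact permutation p = 0.1 each). Pfkl minus Pfkp shifted by 0.68 in Ring1b_KD without overlap, and by -0.22 in CBFb_KD with overlap (exact permutation p = 0.3). For aldolase, Aldoa minus Aldoc shifted by -0.61 in CBFb_KD without overlap and by 0.30 in Ring1b_KD with overlap. The CBFb_KD array that stood apart for both aldolase genes did not stand apart for their difference. Hk1 minus Hk3 shifted by 0.40 in CBFb_KD without overlap and by 0.05 in Ring1b_KD with overlap.

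**Figure D3:**
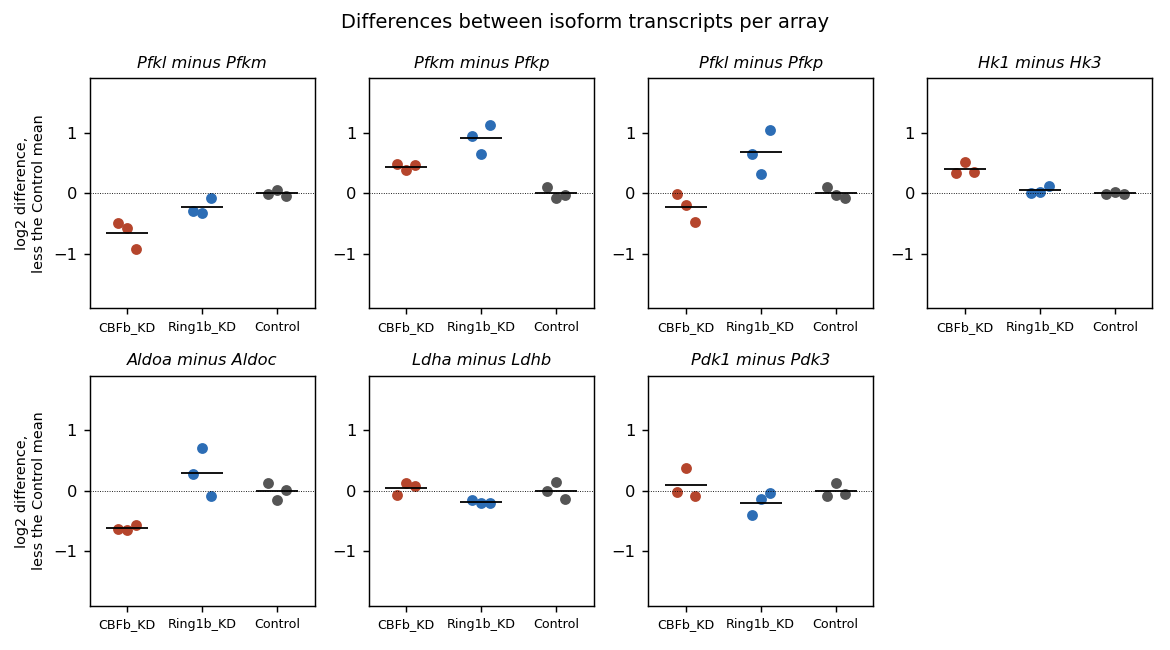
Difference between the log2 signals of 2 isoform genes in each array, less its mean in Control (y axis, log2), for the 7 pairs with both genes above the median gene, with bars at the group means of CBFb_KD, Ring1b_KD and Control. Pfkm minus Pfkp stands at 0.91 in Ring1b_KD, and Aldoa minus Aldoc shows 3 CBFb_KD points close together at about -0.61.

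Most members had more than 1 probe set, and where in the transcript each one lies was not analysed here. The 27 members had 63 single-symbol probe sets, with 10 members read by 1 and 17 by several. In a limma fit over all 45037 probe sets, 9.64% were called for CBFb_KD, 8.48% for Ring1b_KD and 13.4% for CBFb_KD against Ring1b_KD. Counted over the other probe sets of a member and the 3 comparisons, 29 differed from the chosen one in their call, 10 for CBFb_KD, 10 for Ring1b_KD and 9 for the 2 set against each other. In 1 of these a probe set was called in the other direction.

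That case was Pfkl. In Ring1b_KD its dim probe set (mean level 6.08) was higher by 0.35 (limma adjusted p = 0.0401) where the chosen one (mean level 10.48) was lower by -0.45 (limma adjusted p = 0.0318). A further Pfkl probe set, at a mean level of 9.87, was lower in CBFb_KD (-0.47, limma adjusted p = 0.0125) and not called in Ring1b_KD (-0.18, limma adjusted p = 0.337). The dim probe set read -0.03 in CBFb_KD, so the fall of Pfkl in CBFb_KD stood in 2 of its 3 probe sets and that in Ring1b_KD in 1 of 3.

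The Pfkp probe sets all lay below 0 in both knockdowns. The second Pfkp probe set gave -0.77 in Ring1b_KD (limma adjusted p = 0.00447) and -0.42 in CBFb_KD (limma adjusted p = 0.0748), and the dimmest gave -0.42 in Ring1b_KD and -0.29 in CBFb_KD and was called in neither. The 5 Aldoa probe sets gave 0.29 to 0.41 in CBFb_KD and 0.32 to 0.63 in Ring1b_KD, and 1 of them, not the chosen one, was called in both (0.41, limma adjusted p = 0.0174, and 0.63, limma adjusted p = 0.0024). The 5 were read on the same arrays and are not independent of one another. Whether they also match other transcripts was not analysed here. For Pfkfb2, the other probe sets gave 0.13, 0.60 and -0.05 in CBFb_KD, and none of these was called.

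Pdk1 was called through a probe set that had not been chosen. That probe set had log2 signals of 7.75, 7.86 and 7.43 in CBFb_KD, 7.53, 7.13 and 7.25 in Ring1b_KD, and 7.80, 7.998 and 7.94 in Control, with Ring1b_KD wholly below Control (-0.61, limma adjusted p = 0.012). The chosen Pdk1 probe set gave -0.08, and the others -0.33 and 0.02. The second probe set of Slc16a1, at a mean level of 5.30, gave -0.00 in CBFb_KD and -0.22 in Ring1b_KD, that of Aldoc, at a mean level of 4.31, gave 0.02 in CBFb_KD, and neither was called. The second Hk1 probe set gave 0.35 in CBFb_KD (limma adjusted p = 0.103), and the second Tkt probe set -0.31 in Ring1b_KD (limma adjusted p = 0.05004, not called).

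**Figure D4:**
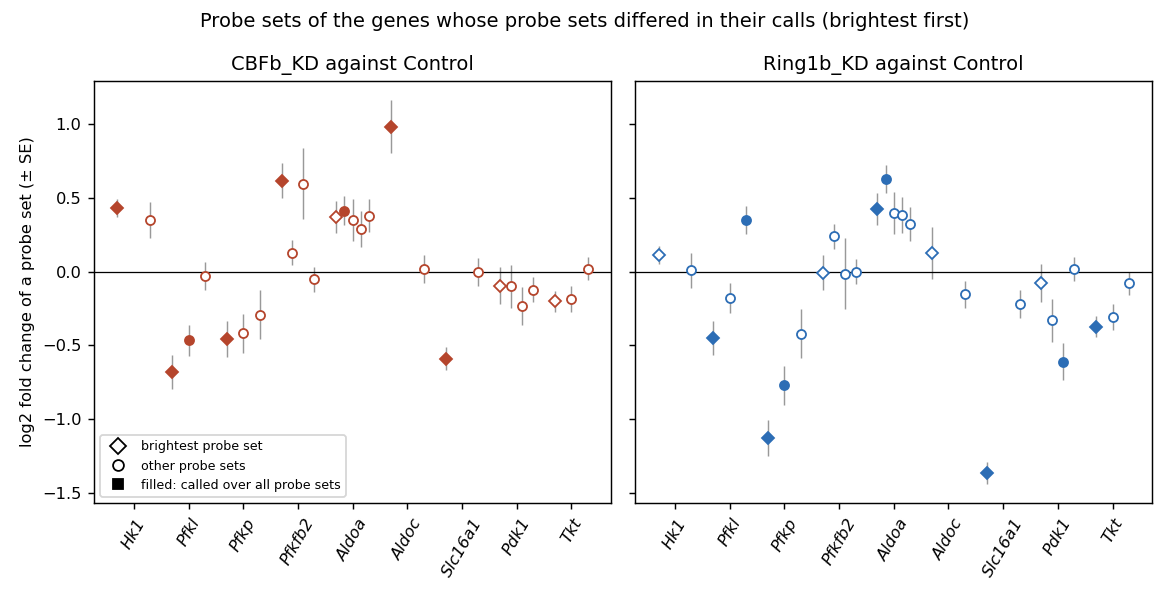
Log2 fold change against Control (y axis, bars are the limma SE) of every probe set of the 9 genes with calls that differed between probe sets in at least 1 of the 3 comparisons, in CBFb_KD on the left and Ring1b_KD on the right. Diamonds are the chosen, brightest probe sets, filled symbols were called over all probe sets, and Pfkl in Ring1b_KD has filled symbols on both sides of 0 (-0.45 and 0.35).

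The members' promoters were searched for the same letters. The RefSeq table held 40 windows of 300 bases (250 before the start and 50 after it) for 26 members and 32851 windows for all genes. ACGTG was in 50.0% of the member windows and in 19.6% of all windows, GCGTG in 55.0% and 32.4%, CACGTG in 12.5% and 7.15%, and TGTGGT in 17.5% and 16.8%. The median GC content of the 250 bases before the start was 60% in member windows and 52.4% in all windows, and the part of base composition in these shares was not tested. Of the members called lower in Ring1b_KD, Pfkp alone had TGTGGT in its window, and Slc16a1 alone had CACGTG.

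Genes around the pathway were counted from lists that exclude the members, and the numbers after each list are genes measured. Among 20 other glycolysis and lactate genes, 1 was called higher and 1 lower in CBFb_KD, and 1 lower in Ring1b_KD. Slc2a9, a urate and hexose transporter, was higher in CBFb_KD (0.63, limma adjusted p = 0.00394), Adpgk, an ADP-dependent glucokinase, was lower there (-0.34, limma adjusted p = 0.0372), and Pgam5 was lower in Ring1b_KD (-0.32, limma adjusted p = 0.0274). The Adpgk call was lost in the values as deposited, with centred arrays, and without CBFb_KD array 2 or 3 or any 1 of the Control arrays, and that of Pgam5 without Control array 1 or 2. With the replicate block 2 were higher in CBFb_KD. With centred arrays 3 were lower in Ring1b_KD. Between the knockdowns 3 of the 20 were higher in CBFb_KD, led by Slc2a9 (0.99, limma adjusted p = 0.000153), and 1 was without CBFb_KD array 2, without Control array 2 or with the mean of probe sets.

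Of 12 genes for the mitochondrial uptake and use of pyruvate, 3 were lower in CBFb_KD (25%), and 3 were lower and 1 higher in Ring1b_KD (33.3%). The shares of all genes called were 15.4% in CBFb_KD and 12.2% in Ring1b_KD. Pdp1, a phosphatase that reactivates pyruvate dehydrogenase, was lower in both, at 7.74, 7.58 and 7.63 in CBFb_KD (-0.63, limma adjusted p = 0.000536) and 7.77, 7.63 and 7.59 in Ring1b_KD (-0.62, limma adjusted p = 0.00118), against 8.12, 8.33 and 8.39 in Control. In CBFb_KD the other phosphatase subunit genes were lower too, Pdp2 by -0.59 (limma adjusted p = 0.00155) and Pdpr by -0.36 (limma adjusted p = 0.00428). In Ring1b_KD, Pdha1, a subunit of pyruvate dehydrogenase, fell by 0.43 (limma adjusted p = 0.00223) and Pcx, pyruvate carboxylase, by 0.43 (limma adjusted p = 0.0148), while Mpc1, of the mitochondrial pyruvate carrier, was higher by 0.39 (limma adjusted p = 0.0488), and 0 of the 12 were higher in the values as deposited, with centred arrays, with the mean of probe sets, or without any 1 of the CBFb_KD or Control arrays. Between the knockdowns 3 of the 12 were higher in CBFb_KD and 2 lower.

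Of 10 other pentose phosphate and ribose phosphate genes, 0 were higher in either knockdown, 4 were lower in CBFb_KD (40%) and 2 were lower in Ring1b_KD (20%). For this list and the next, the shares of all genes called were 15.4% in CBFb_KD and 12.2% in Ring1b_KD. Prps2, which makes the activated ribose used for nucleotides, was lower in CBFb_KD (-0.63, limma adjusted p = 0.000127), as were Pgls (-0.44, limma adjusted p = 0.0143), Prps1 (-0.31, limma adjusted p = 0.0167) and Rpia (-0.32, limma adjusted p = 0.0329). In Ring1b_KD, Prps1 (-0.31, limma adjusted p = 0.0231) and Rpe (-0.35, limma adjusted p = 0.032) were lower. In each comparison with Control 4 of the 10 had an unadjusted limma p under 0.05, as did 25.2% of all genes in CBFb_KD and 26.9% in Ring1b_KD. The CBFb_KD count was 1 without CBFb_KD array 2 or 3 and 2 without Control array 1 or 3, and the Ring1b_KD count was 0 without Ring1b_KD array 2 or Control array 1 or 2. Of 14 NADPH and glutathione genes, 7 were lower in CBFb_KD (50%, median -0.29), and 2 were higher and 4 lower in Ring1b_KD (42.9%, median -0.19). Txn1 (-0.42, limma adjusted p = 0.00188) and Mthfd1 (-0.69, limma adjusted p = 0.00243) led in CBFb_KD, and Mthfd2 (-0.79, limma adjusted p = 0.000209) and Txnrd1 (-0.61, limma adjusted p = 0.00137) in Ring1b_KD. The CBFb_KD count was 2 without CBFb_KD array 2 and between 2 and 4 without CBFb_KD array 3 or any 1 of the Control arrays, and in Ring1b_KD 1 was higher without Ring1b_KD array 1 or Control array 1 or 3. With centred arrays 0 were higher and 8 lower in Ring1b_KD.

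Of 19 glycogen and gluconeogenesis genes, 5 were higher and 0 lower in CBFb_KD (26.3%), and 2 were higher and 2 lower in Ring1b_KD (21.1%). For this list and the next, the shares of all genes called were 15.4% in CBFb_KD and 12.2% in Ring1b_KD. Gyg, the primer protein of glycogen, was higher in both, by 0.69 in CBFb_KD (limma adjusted p = 0.000487) and 0.36 in Ring1b_KD (limma adjusted p = 0.0338). Pgm2l1 was higher in CBFb_KD (0.99, limma adjusted p = 0.000959), and Pygl, the liver-type glycogen phosphorylase, was lower in Ring1b_KD (-0.64, limma adjusted p = 0.00159). The CBFb_KD count was 3 without Control array 2 or 3, and the count of higher genes in Ring1b_KD was 0 without Ring1b_KD array 1 or any 1 of the Control arrays. Of 17 tricarboxylic acid cycle genes, 2 were higher and 3 lower in CBFb_KD (29.4%), led by Idh3a (-0.44, limma adjusted p = 0.00376) and Idh3b (0.35, limma adjusted p = 0.00579). In Ring1b_KD 1 was lower (5.9%), Sucla2 (-0.45, limma adjusted p = 0.00191). In CBFb_KD those counts were 1 and 1 without CBFb_KD array 2 or 3 or Control array 1 or 3, and 1 lower without Control array 2. In Ring1b_KD 3 were lower in the values as deposited, 5 with centred arrays and 0 with the mean of probe sets. Of the glycogen genes in Ring1b_KD, 0 were higher and 3 lower in the values as deposited, and 0 higher and 5 lower with centred arrays.

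Known regulators of the pathway were read at the transcript level. Hif1a, the hypoxia factor that induces many glycolytic genes, differed by -0.05 in CBFb_KD (limma adjusted p = 0.792) and 0.22 in Ring1b_KD (limma adjusted p = 0.0679), and was lower in CBFb_KD than in Ring1b_KD (-0.27, limma adjusted p = 0.0219). That last call was not kept under all 17 alternatives. Of 20 hypoxia factors and other hypoxia-induced genes, 3 were higher and 1 lower in each knockdown. That was 20% in each, beside 15.4% of all genes in CBFb_KD and 12.2% in Ring1b_KD. Arnt, Ddit4 and Kdm3a were the higher ones in both, with Ddit4 at 0.83 in CBFb_KD (limma adjusted p = 0.00637) and 0.89 in Ring1b_KD (limma adjusted p = 0.00681), Kdm3a at 0.37 and 0.45, and Arnt at 0.50 and 0.36. Egln1 was lower in CBFb_KD (-0.34, limma adjusted p = 0.0104) and P4ha1 in Ring1b_KD (-0.50, limma adjusted p = 0.00915). The Egln1 call was lost without CBFb_KD array 2, and 5 of the 20 were higher in CBFb_KD without CBFb_KD array 1 or with the replicate block. With centred arrays 1 was higher and 2 lower in Ring1b_KD.

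Of 17 other regulators of glucose metabolism, 3 were higher and 2 lower in CBFb_KD (29.4%), and 3 were higher and 1 lower in Ring1b_KD (23.5%). The shares of all genes called were 15.4% in CBFb_KD and 12.2% in Ring1b_KD. In CBFb_KD 1 was lower without CBFb_KD array 2 or 3 or any 1 of the Control arrays. Over the 17 alternatives, the count of higher genes was 1 to 4 in CBFb_KD and 1 to 3 in Ring1b_KD. With centred arrays 2 were higher and 4 lower in Ring1b_KD. Myc, a transcription factor that activates glycolytic genes, had log2 signals of 11.09, 11.14 and 11.20 in CBFb_KD, 11.42, 11.45 and 11.40 in Ring1b_KD, and 11.80, 11.81 and 12.05 in Control. It was lower by -0.74 in CBFb_KD (limma adjusted p = 6.32e-05) and by -0.46 in Ring1b_KD (limma adjusted p = 0.00267). Txnip, a glucose-induced inhibitor of glucose uptake, had log2 signals of 10.74, 11.10 and 10.61 in CBFb_KD, 11.15, 10.82 and 10.41 in Ring1b_KD, and 9.67, 9.62 and 9.28 in Control. It was higher by 1.29 in CBFb_KD (limma adjusted p = 0.000313) and 1.27 in Ring1b_KD (limma adjusted p = 0.000672), with no overlap with Control in either. Rptor, the mTORC1 subunit raptor, was higher in both as well, by 0.52 in CBFb_KD (limma adjusted p = 0.000789) and 0.65 in Ring1b_KD (limma adjusted p = 0.000388).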

How the data were processed

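Each of the 9 samples of L8057 RNA, 3 per group, was hybridised to its own one-colour array of short oligonucleotides. The deposited table holds log2 values from 3.227 to 15.355 for 45101 probe sets, judged by their range to be on a log2 scale. How the authors corrected, summarised and normalized the deposited values is not given in the sources used here. Array medians spanned 0.137, above a set limit of 0.1, so all probe sets were quantile normalized with limma 3.58.1 (R 4.3.3) and 64 control probe sets were then left out. The annotation table gave a single gene to 34945 probe sets, several genes to 932 and did not list 9160. Each of 18193 genes was read from the brightest of its single-symbol probe sets, by the mean of the 9 arrays.

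Group means were fitted to all 9 arrays with lmFit and eBayes(trend = TRUE) (prior degrees of freedom 6.80). Benjamini-Hochberg adjustment of the two-sided limma p ran over all 18193 genes, and a gene under 0.05 was called. The number of arrays limits the precision. The members, the surrounding lists and the tests were chosen with earlier results of these data known, and no list was tested as a set. All members are accounted for. Of the lists, at most 4 called genes per list and comparison were named, by smallest adjusted p, with Hif1a, Myc and Txnip whatever their result. Promoters came from a RefSeq table on GRCm38.p6, and coordinates are gene bounds of that build. The fit was tested on simulated data with independent noise in each array. Those data had no scaling differences or pairing between arrays, so that run does not bear on either.

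The array numbers come from the labels. Deviations from the group means of arrays with the same number correlated at 0.203, 0.377 and 0.2 between CBFb_KD and Control, the highest match of each of those arrays in the other group. The numbers may thus pair those samples, which the labels do not state and the main fit does not use. For that comparison the text or the closing section gives the blocked value of each member call and list count that the block changed. Alternatives were the values as deposited, centring on array medians, averaging the probe sets of each gene, leaving out dim genes, a robust variance, only the arrays compared, the replicate block, leaving out each array, and, added after seeing the data, a fit over all probe sets.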

Additional observations from a re-analysis of the deposited data

How the results depend on the processing

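Of the calls against Control, those of Slc16a1 in both knockdowns, of Pfkp in Ring1b_KD, and of Hk1, Pfkl, Aldoc and Pkm in CBFb_KD held in all 17 alternatives, and no called member changed sign. Leaving out 1 array gave 1751 to 2995 called genes in CBFb_KD against Control (1849 without CBFb_KD array 2 and 1751 without Control array 3), 1139 to 2365 in Ring1b_KD against Control (1225 and 1139 without Control arrays 2 and 3), 0 to 1 members higher in Ring1b_KD, and 0 to 5 members lower in CBFb_KD than in Ring1b_KD. In the values as deposited and with arrays centred on their medians, 0 members were higher in Ring1b_KD than in Control by limma and 0 were lower in CBFb_KD than in Ring1b_KD. That second count was 1 with the arrays of those groups alone. Averaging the probe sets of each gene, 3 members were higher in CBFb_KD and 2 lower in Ring1b_KD. The cause of these changes was not tested, and the fits that left out an array also held fewer arrays. With the replicate block, 3142, 2611 and 3938 genes were called in CBFb_KD against Control, Ring1b_KD against Control and CBFb_KD against Ring1b_KD, and Pgam1 in CBFb_KD was the only member call it changed. With the block, lower genes numbered 4 for mitochondrial pyruvate uptake and use and 8 for NADPH and glutathione and higher genes 6 for glycogen in CBFb_KD, and 3 cycling and 3 other glycolysis genes were lower in Ring1b_KD. The deviations of same-numbered arrays correlated less between Ring1b_KD and Control (-0.0677, 0.0436 and 0.153) and between Ring1b_KD and CBFb_KD (0.0454, 0.104 and -0.0377). Of 126 isoform differences under other scalings or probe sets, 29 moved by more than the spread between arrays. Slc2a1, Hk2, Pfkfb3, Pfkfb4, Eno2 and Slc16a3 lay below the median gene, where small differences are harder to see over background.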
